A study of Mus musculus with 13 samples.

Results

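The oocyte NLRP family described here held 9 mouse genes, Nlrp2, Nlrp4a, Nlrp4b, Nlrp4c, Nlrp4f, Nlrp9a, Nlrp9b, Nlrp9c and Nlrp14. They were chosen by name, with Nlrp5 left out, by a rule that uses no measured value but was written with earlier results of these data known, and their Ensembl identifiers were found in the deposited count files. All 9 had a row in the ribosome footprint tables, of 22442 genes in all, and in the acetylcytidine immunoprecipitation tables, of 21898 genes. NLRP proteins carry a NACHT domain that binds nucleotides and a run of leucine-rich repeats. Several members in immune cells build inflammasomes, the complexes that activate caspase-1, whereas a rodent-expanded group is made in growing oocytes and handed to the embryo as maternal protein. In the oocyte some of these proteins sit under the cell membrane or on the cytoplasmic lattices together with OOEP, TLE6, KHDC3 and PADI6, and loss of Nlrp2 or Nlrp14 in the mother impairs early embryos.

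The study asked what the acetyltransferase NAT10, which makes N4-acetylcytidine (ac4C) in RNA, does for oocyte maturation. Ribosome footprints (Ribo-seq) were sequenced from fully grown oocytes at the germinal vesicle (GV) stage and from matured metaphase II (MII) oocytes, in wild-type (WT) and Nat10-ZcKO mice, in which Cre under the oocyte-specific Zp3 promoter removes Nat10 in growing oocytes, with about 100 oocytes per library from females given hormone at 21 days of age. The paper's methods take GV oocytes after the hormone PMSG alone, and superovulated oocytes from the oviduct after PMSG and then hCG. Its Ribo-seq methods do not say how the MII oocytes were obtained, so hormone and collection site may differ with stage. There were 3 GV WT, 3 GV Nat10-ZcKO, 2 MII WT and 3 MII Nat10-ZcKO libraries. RNA of about 2000 WT GV oocytes, also from females given hormone at 21 days of age, was pulled down with an anti-ac4C antibody or with IgG (acRIP-seq), 1 library each. Per the paper, the mice of every experiment had a C57BL/6J background. The design text of the series also names tamoxifen injection, which a Zp3-Cre deletion does not need, and the labels do not say whether replicates came from different females, so each p-value below measures the spread between these libraries only.

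The family falls into subfamilies of near copies, which bears on how well footprints could be assigned. On mm10 (GRCm38), 8 members lie on chromosome 7 and 1 on chromosome 13. Nlrp9c (chr7:26322473-26403700, minus strand), Nlrp4a (chr7:26435113-26476142, plus) and Nlrp9a (chr7:26535023-26575615, plus) are neighbours. Nlrp2 (chr7:5298547-5351035, minus), Nlrp4c (chr7:6045161-6105150, plus), Nlrp4b (chr7:10687789-10730168, plus) and Nlrp9b (chr7:19991465-20073306, plus) lie nearer the start of the chromosome. Nlrp14 (chr7:107166990-107198102, plus) lies far from these, and Nlrp4f (chr13:65177111-65205977, minus) is the member on chromosome 13. The coding sequences of Nlrp9a and Nlrp9c were identical at 87.4% of aligned bases, those of Nlrp4a and Nlrp4c at 86.3%, and those of Nlrp4a and Nlrp4f at 83.4%. Nlrp4b was the most distant of its subfamily, with 77.1% to 79.0% identity, and members of different subfamilies shared 52.4% to 57.4%.

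A footprint is about as long as a window of 28 nt, and the following coding-exon windows are shown because each occurs unchanged in 2 members, so that a read from it cannot be given to either gene. They are printed in lower case throughout, with no base marked. The first is the start of a run of 129 identical bases in Nlrp9a (chr7:26557547-26557574, plus) and Nlrp9b (chr7:20023428-20023455, plus), and the second of a run of 72 bases in Nlrp4a (chr7:26450671-26450698, plus) and Nlrp4c (chr7:6066803-6066830, plus).
Nlrp9a and Nlrp9b: gagcttatctcaagtacgttgcctgaat
Nlrp4a and Nlrp4c: atgaactgtatggaacagattaactttg
Such windows were not spread evenly over the family. Every one of the 2709 windows of Nlrp14 was found once in the 21 chromosomes searched, and 1.29% of those of Nlrp4b and 6.86% of those of Nlrp2 were found elsewhere. The share was 11.2% for Nlrp9c, 12.8% for Nlrp9b, 14.0% for Nlrp9a, 16.4% for Nlrp4a, 26.9% for Nlrp4f and 34.4% for Nlrp4c. For some genes, copies in other members were only a part of this. Nlrp4f had 697 windows found elsewhere and shared at most 60 with any one member. Nlrp4c had 929 and shared at most 221, and Nlrp2 had 195 and shared 0. Levels of Nlrp4c and Nlrp4f, and the split of counts within the Nlrp4 and the Nlrp9 genes, are therefore uncertain, whereas counts on Nlrp14 do not have this limit.

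**Figure D1:**
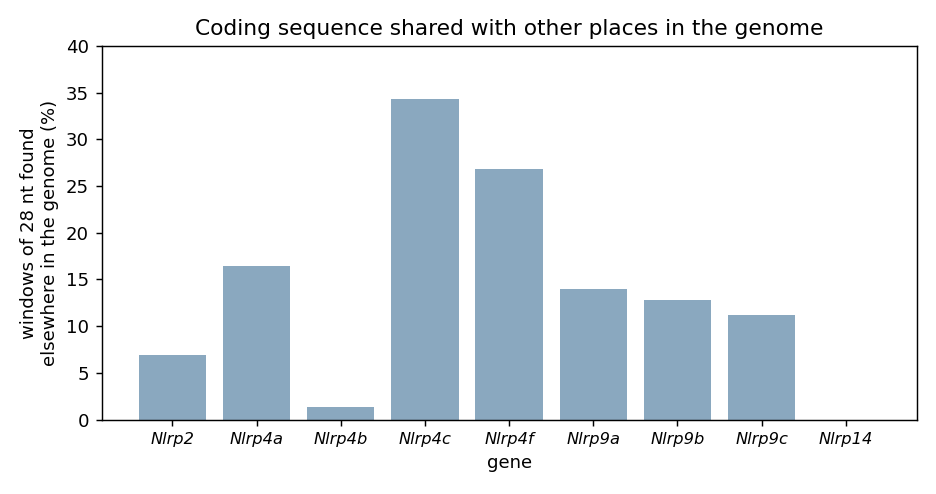
Bars give, for each of the 9 genes, the percentage of the 28-nt windows within its coding exons that occur anywhere else in the genome on either strand. The share ran from 0% for Nlrp14 to 34.4% for Nlrp4c.

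Translation of stored maternal messages during maturation is governed in part by the end of the 3′ untranslated region (UTR), where CPEB binds the cytoplasmic polyadenylation element, commonly TTTTAT or TTTTAAT, near the polyadenylation signal AATAAA or ATTAAA. These 4 motifs were searched on the transcript strand in the last 200 nt of the annotated 3′ UTR, or in all of it where it was shorter. TTTTAT was present in Nlrp4a, Nlrp4c, Nlrp4f, Nlrp9a and Nlrp9c, and was not in the searched stretch of Nlrp2, Nlrp4b, Nlrp9b or Nlrp14. TTTTAAT was in none of the 9, AATAAA was in Nlrp2, Nlrp4c, Nlrp9a, Nlrp9b and Nlrp9c, and ATTAAA in Nlrp2, Nlrp4b, Nlrp4c, Nlrp4f and Nlrp9c. Of 17145 mouse genes with a 3′ UTR of at least the window, 22.6% held TTTTAT, 8.22% TTTTAAT, 66.8% AATAAA and 25.0% ATTAAA, so either element was in 28.2%. Nlrp2, Nlrp9a, Nlrp9c and Nlrp14, with 189, 195, 196 and 184 nt, are shorter than the window and lie outside that set. The 6 sites below are shown to compare close copies, with the TTTTAT nearest the end for Nlrp4a, Nlrp4f, Nlrp9a and Nlrp9c and the polyadenylation signal for Nlrp4b and Nlrp9b, which have no TTTTAT in the stretch, and capitals mark the motif. Whether TTTTAT, or its distance from the end, goes with the change in footprints from GV to MII, given further on, was not tested. The Nlrp4a site (chr7:26476084-26476113, plus) starts 47 nt before the annotated end, and the Nlrp4f site at 35 nt (chr13:65177128-65177157, minus) runs up to the ATTAAA at 29 nt. The ATTAAA of Nlrp4b (chr7:10730128-10730157, plus) is also at 29 nt. The Nlrp9a site (chr7:26573964-26573993, plus) and the Nlrp9c site (chr7:26364846-26364875, minus) start 173 nt before the end, and the AATAAA of Nlrp9b (chr7:20062904-20062933, plus) is at 25 nt.
Nlrp4a, TTTTAT: cttttcatccaaTTTTATgtcatctctcac
Nlrp4f, TTTTAT: tgctgttttgtgTTTTATattaaagaatag
Nlrp4b, ATTAAA: tttctgttttgtATTAAAgaataacataag
Nlrp9a, TTTTAT: aggtttatccttTTTTATgtttctcctata
Nlrp9c, TTTTAT: ggcttatcctttTTTTATgtttctcctgta
Nlrp9b, AATAAA: acaagcacatttAATAAAcactaagcgtgt
A match describes these letters only. The annotated ends of Nlrp4a and Nlrp14 held neither AATAAA nor ATTAAA within the window, and the annotated 3′ UTR of Nlrp14 was 184 nt long.

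Depth differed widely between libraries. The Ribo-seq libraries held 4815 to 279464 counts on coding sequences, and the 20 oocyte markers, among them Zp2, Gdf9 and Uchl1, took 4.63% to 5.80% of counts in GV WT and 1.95% to 3.03% in MII Nat10-ZcKO. A group of 3 libraries stood apart. MII WT replicate 2 held the 4815 counts, with 16 of the 20 oocyte markers at 0. In GV Nat10-ZcKO replicates 1 and 2 the oocyte markers took 0.0165% and 1.35% of counts, with 15 and 5 of 20 at 0, against 7.45% in replicate 3. Markers of adipocytes took 1.78% and 0.389% in these 2 libraries, against 0.0227% in replicate 3 and 0.0330% to 0.0426% in GV WT, and markers of smooth muscle and stroma 0.890% and 0.199% against 0.158% and 0.112% to 0.173%. Granulosa and cumulus markers took 0.405% to 0.603% in GV WT, 0.328% to 1.25% in GV Nat10-ZcKO, 0.649% in MII WT replicate 1 and 0.255% to 0.597% in MII Nat10-ZcKO, and blood markers at most 0.0307% in any library. The part of these other cells in the results was not tested, and in bulk libraries fewer oocytes and less RNA per oocyte cannot be told apart. Each result is therefore given with and without the 3 libraries. Nat10 itself had 8, 11 and 3 counts in GV WT, 4, 1 and 5 in GV Nat10-ZcKO, 1 and 5 in MII WT and 6, 3 and 2 in MII Nat10-ZcKO, too few to check the genotype labels. 

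In WT GV oocytes the family was made up chiefly of Nlrp14. The 9 genes together took 1.23%, 1.70% and 1.83% of all counts, and by counts Nlrp14 ranked 6, 5 and 5 among all genes in the 3 libraries. Scaled to a library total of 1000000 counts on coding sequences (CPM), Nlrp14 was at 9521, 13351 and 14187. Per kilobase of coding sequence, the scale on which genes can be compared, its level was 4123 ± 830 (SD, n = 3), followed by Nlrp2 at 462 ± 108. These first 2 places were separate, since no library of the lower gene reached any library of the higher.

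Below them came Nlrp4b at 191 ± 63.7 CPM per kb, Nlrp9c at 129 ± 16.2, Nlrp9b at 116 ± 25.3, Nlrp4f at 101 ± 30.6 and Nlrp9a at 91.7 ± 31.7. Each of these 5 overlapped its neighbour in the order. Nlrp4a, at 55.7 ± 10.4, lay below all libraries of Nlrp9a, and Nlrp4c was lowest, with 0, 4 and 5 counts in the 3 libraries. The count of 0 allows up to 20.6 CPM of Nlrp4c, and 34.4% of its windows were not unique. With unique windows as the length, a scale chosen after seeing the data, Nlrp4f moved from 101 to 160 and passed Nlrp9b, at 152.

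In MII Nat10-ZcKO oocytes, the group with 3 libraries of like depth, the order was different. Nlrp14 was still first at 439 ± 56.6 CPM per kb (n = 3), but Nlrp4b followed at 271 ± 68.0, Nlrp4f at 177 ± 35.0 and Nlrp4a at 158 ± 39.0, all above Nlrp2 at 60.8 ± 24.8 with no overlap. The Nlrp9 genes came next, with Nlrp9c at 40.8 ± 15.0, Nlrp9b at 35.9 ± 10.2 and Nlrp9a at 17.0 ± 8.13. Nlrp4c, with 3, 1 and 3 counts, was last again.

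**Figure D2:**
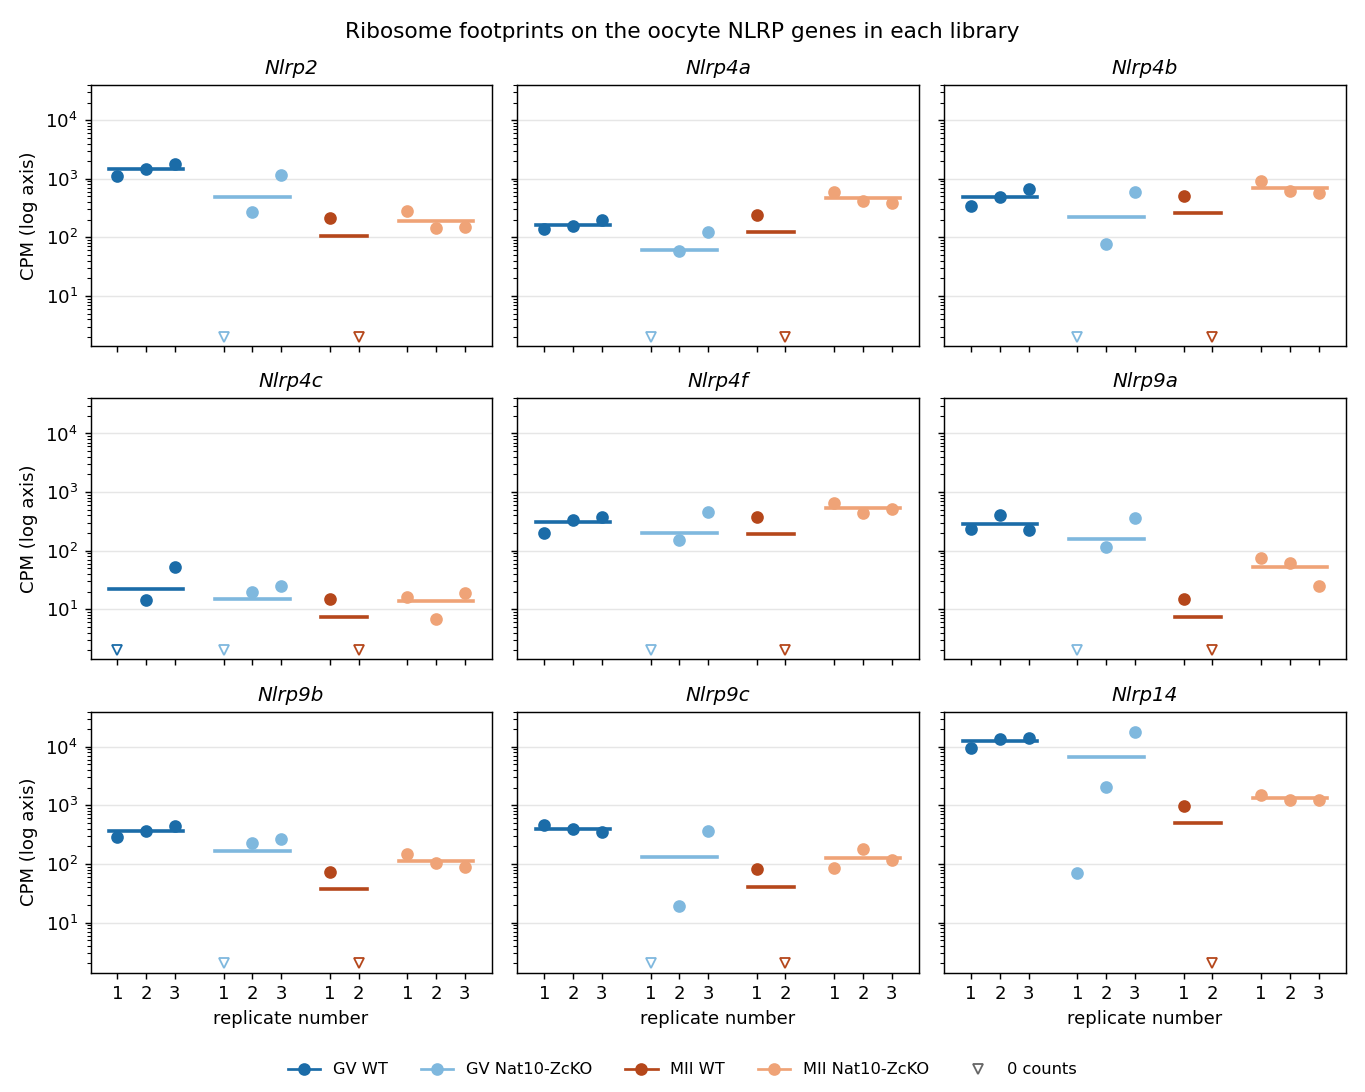
Each panel plots 1 gene, with CPM on a log axis for every library, grouped by stage and genotype, and a line at the group mean. Open triangles mark libraries with 0 counts. Nlrp14 lies at 9521 to 14187 CPM in GV WT and at 1215 to 1511 CPM in MII Nat10-ZcKO.

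The comparison of GV with MII asks on which members footprints fall or hold as the oocyte matures. No RNA level was set beside the footprints, so loss of the message and lower translation of it cannot be told apart here. Nlrp14 fell from 9521, 13351 and 14187 CPM in GV WT to 994 in MII WT replicate 1, and from 18144 in GV Nat10-ZcKO replicate 3 to 1511, 1220 and 1215 in MII Nat10-ZcKO. MII WT replicate 2 had 0 counts, which allow up to 623 CPM, so for 8 of the 9 members its 0 does not separate it from the level in replicate 1. GV Nat10-ZcKO replicates 1 and 2 had 70.8 and 2050 CPM. Outside the 3 libraries that stand apart, every GV value of Nlrp14 exceeded every MII value.

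Nlrp2, a maternal-effect gene like Nlrp14, followed the same course. It was at 1121, 1460 and 1799 CPM in GV WT and 215 in MII WT replicate 1. In Nat10-ZcKO it was at 1180 in GV replicate 3 and at 282, 143 and 150 at MII, whereas GV replicates 1 and 2 had 0 and 271.

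The Nlrp9 genes were lower at MII as well, outside the 3 libraries. Nlrp9a was at 234, 404 and 229 CPM in GV WT and 14.8 in MII WT replicate 1, a value of 2 counts, and at 361 in GV Nat10-ZcKO replicate 3 against 74.5, 61.3 and 25.0 at MII. Nlrp9b was at 289, 361 and 447 in GV WT and 74.2 in MII WT replicate 1, and at 271 in GV Nat10-ZcKO replicate 3 against 149, 102 and 87.7. Nlrp9c was at 454, 394 and 354 in GV WT and 81.6 in MII WT replicate 1, and at 372 in GV Nat10-ZcKO replicate 3 against 85.1, 177 and 119. For none of these 3 genes did a GV value overlap an MII value among the 8 libraries, and GV Nat10-ZcKO replicate 2 gave 116, 232 and 19.3 for them.

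The Nlrp4 genes, whose roles in the oocyte are less well described, did not follow. Nlrp4a was at 137, 157 and 198 CPM in GV WT and 245 in MII WT replicate 1, and at 123 in GV Nat10-ZcKO replicate 3 against 596, 416 and 382 at MII, so that among these 8 libraries its MII values all lay above its GV values. GV Nat10-ZcKO replicates 1 and 2 had 0 and 58.0, and MII WT replicate 2 had 0. Nlrp4b was at 337, 479 and 666 in GV WT and 512 in MII WT replicate 1, and at 595 in GV Nat10-ZcKO replicate 3 against 904, 620 and 582. Nlrp4f was at 199, 336 and 374 in GV WT and 378 in MII WT replicate 1, and at 451 in GV Nat10-ZcKO replicate 3 against 649, 443 and 507. GV Nat10-ZcKO replicates 1 and 2 had 0 and 77.4 for Nlrp4b and 0 and 155 for Nlrp4f, and MII WT replicate 2 had 0 for each. The stages overlapped for Nlrp4b and Nlrp4f with or without these libraries, and for Nlrp4c, which had 0 to 7 counts per library.

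Across the 8 libraries 5 members thus lay wholly lower at MII and 1 wholly higher, where 30.5% and 31.1% of the 2198 genes with 100 or more counts did so. In edgeR's quasi-likelihood test on all libraries, which adjusts p-values over all genes tested by the Benjamini-Hochberg method, only Nlrp9a among 8 members tested passed 0.05 in WT, with a log2 change of -3.92 ± 1.24 (SE, adjusted p = 0.0150), a call that was lost without GV WT replicate 2 or without replicate 3. Of the 2045 genes tested, 11.5% were called lower at MII and 9.98% higher. Nlrp14 changed by -4.04 ± 2.26 (adjusted p = 0.171) and Nlrp2 by -2.88 ± 1.66 (adjusted p = 0.180).

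Without MII WT replicate 2, 5 members were called lower and none higher, where 24.0% of 3264 genes were called lower and 20.9% higher. These 5 were Nlrp14 at -3.54 ± 0.36 (edgeR adjusted p = 9.7e-07), Nlrp2 at -2.66 ± 0.33, Nlrp9a at -4.18 ± 0.68, Nlrp9b at -2.19 ± 0.43 and Nlrp9c at -2.22 ± 0.43. Nlrp4a at 0.68 ± 0.37, Nlrp4b at 0.16 ± 0.33 and Nlrp4f at 0.42 ± 0.35 were not called, and the median over all genes tested was -0.35. MII was then represented by 1 library, which the fit assumes to vary like the GV libraries.

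In Nat10-ZcKO on all libraries no member passed in edgeR, 1 of 8 had an unadjusted p under 0.05, and DESeq2 called 1. That member was Nlrp4a in both tools, at 2.27 ± 0.87 (edgeR adjusted p = 0.0858), where 6.02% of 2225 genes were called lower at MII and 10.2% higher. Without GV replicates 1 and 2, which leaves 1 GV library whose spread is taken from the MII libraries, the same 5 members as in WT were called lower. Nlrp14 changed by -4.09 ± 0.53 (edgeR adjusted p = 1.7e-12), Nlrp2 by -2.94 ± 0.46, Nlrp9a by -3.06 ± 0.55, Nlrp9b by -1.57 ± 0.53 and Nlrp9c by -1.85 ± 0.51. Nlrp4a was called higher at 1.60 ± 0.58 (edgeR adjusted p = 0.0187), whereas Nlrp4b at -0.083 ± 0.50 and Nlrp4f at -0.068 ± 0.50 were not called. The background was 19.6% of 3741 genes lower and 19.0% higher, with a median of 0.11. The libraries of the 2 genotypes are separate, so that these WT and Nat10-ZcKO values rest on no common sample.

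**Figure D3:**
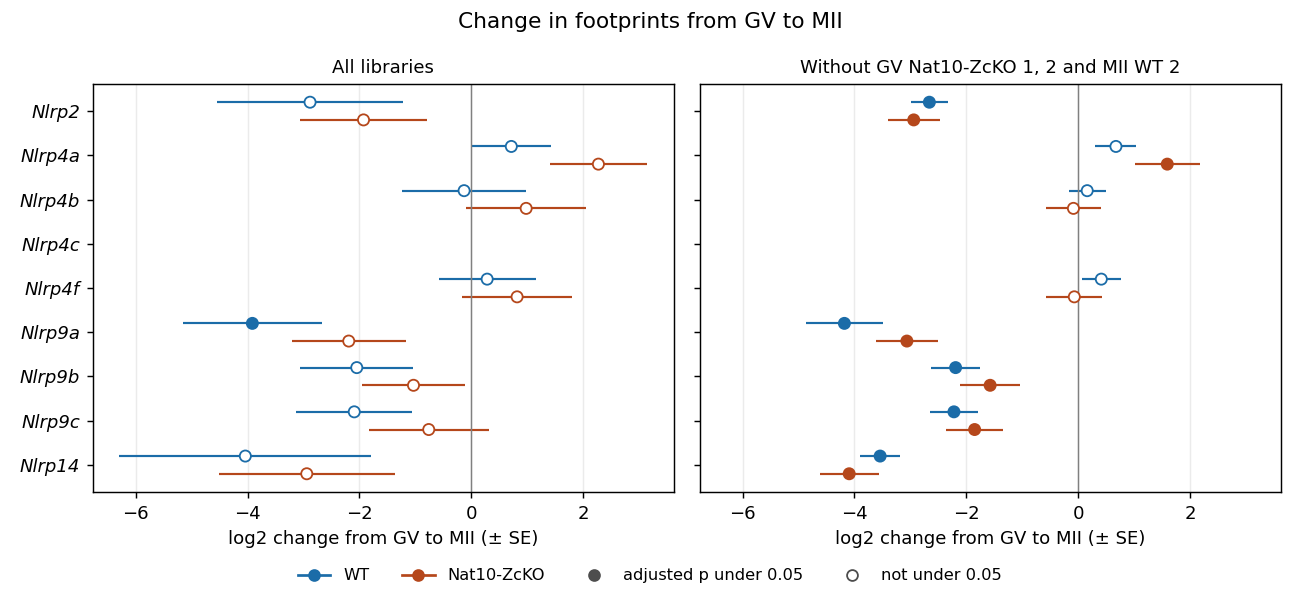
Points give the log2 change from GV to MII in WT and Nat10-ZcKO oocytes with its SE, on the left from all libraries and on the right without the 3 libraries that stand apart, and filled points have an edgeR adjusted p under 0.05. Nlrp4c was not tested. On the right Nlrp2, Nlrp14 and the Nlrp9 genes lie between -4.18 and -1.57 in both genotypes, and Nlrp4b and Nlrp4f between -0.083 and 0.42.

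The direction of a change depends on the scale, since the oocyte markers themselves took a smaller share of counts at MII. In GV WT replicate 1 and MII WT replicate 1, libraries of like depth, Zp2 had 1267 and 28 counts and H1foo 335 and 1487. The markers thus differ with stage in both directions, and a scale per marker count does not measure oocyte content alone. Over the 8 libraries, the log2 ratio of mean CPM of Nlrp14 was -3.64 in WT and -3.79 in Nat10-ZcKO, and per oocyte marker count, a scale chosen after seeing the data, -2.46 and -2.25. Nlrp2 and Nlrp9a also stayed lower on the marker scale in both genotypes, whereas Nlrp9b and Nlrp9c turned to 0.27 and 0.09 in Nat10-ZcKO. On the same scale Nlrp4a was at 1.74 and 3.45, Nlrp4b at 1.24 and 1.76, and Nlrp4f at 1.50 and 1.76.

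Shares within the family need no scaling between libraries and gave the clearest contrast of the stages. They depend on each other, so that a fall of Nlrp14 raises the shares of the rest, and in CPM Nlrp4b and Nlrp4f overlapped between stages. In GV WT, Nlrp14 took 77.5% (Clopper-Pearson 95% interval 75.5 to 79.4), 78.7% and 77.5% of the counts on the 9 genes, and Nlrp4a, Nlrp4b and Nlrp4f together took 5.48%, 5.74% and 6.76%. In GV Nat10-ZcKO replicate 3 the values were 84.3% and 5.43%, and in replicate 2, on 155 counts, 68.4% and 9.68% (5.52 to 15.5). At MII, Nlrp14 took 39.3% (34.1 to 44.7) in WT replicate 1 and 35.4%, 38.2% and 39.4% in Nat10-ZcKO.

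The 3 Nlrp4 genes took 44.9% (39.5 to 50.3) in MII WT replicate 1 and 50.4%, 46.4% and 47.7% in MII Nat10-ZcKO. Counts on them were 0.0708, 0.0729 and 0.0872 of those on Nlrp14 in GV WT, 0.0644 in GV Nat10-ZcKO replicate 3 and 0.142 in replicate 2, against 1.14 in MII WT replicate 1 and 1.42, 1.21 and 1.21 in MII Nat10-ZcKO. No GV library with over 100 family counts reached the range of the MII libraries, in either genotype. The 3 Nlrp9 genes took 5.63% to 7.94% in GV WT and 6.74% to 10.7% in the MII libraries, ranges that overlap. The intervals cover counting error only, and GV Nat10-ZcKO replicate 1 with 3 family counts, all on Nlrp14, and MII WT replicate 2 with 0 gave no usable share.

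**Figure D4:**
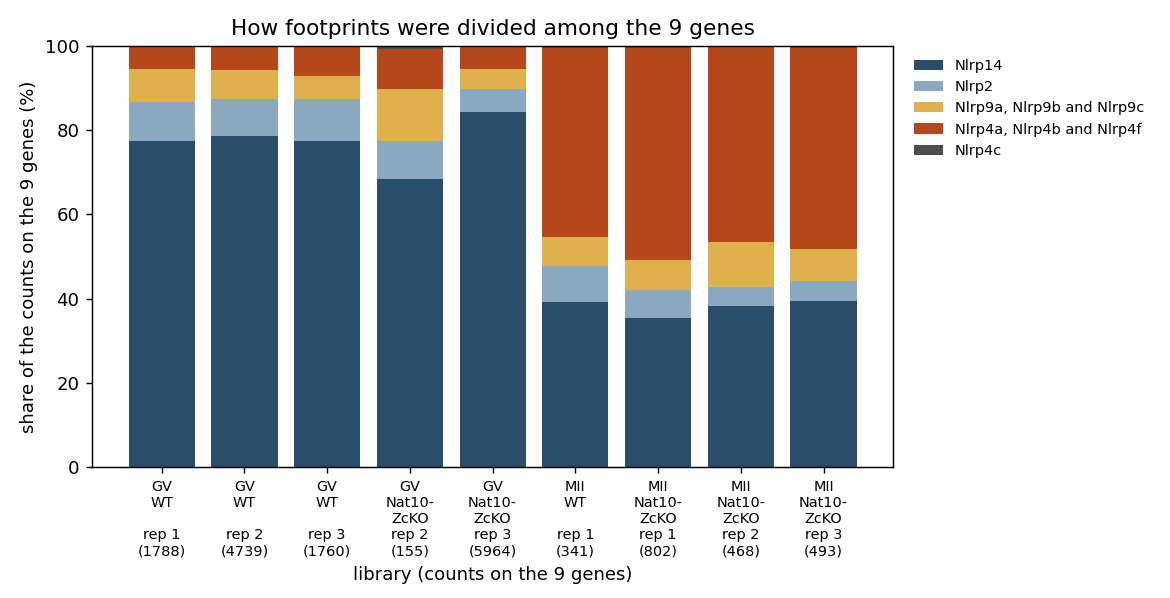
Stacked bars divide the footprint counts on the 9 genes in each of the 9 libraries with 100 or more such counts, which are given in brackets. Nlrp14 takes 68.4% to 84.3% in the GV libraries and 35.4% to 39.4% in the MII libraries, where Nlrp4a, Nlrp4b and Nlrp4f together take 44.9% to 50.4%.

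The comparison of genotypes asks whether loss of Nat10 changed footprints on the members. At GV no gene of 1765 was called by edgeR (0%), and none of the 8 members tested had an unadjusted p under 0.05. DESeq2 called none either, but it gave no p-value for Nlrp14 and no adjusted p for Nlrp4c. The 8 log2 changes from WT to Nat10-ZcKO ran from -1.37 ± 1.17 for Nlrp2 to -0.28 ± 0.92 for Nlrp4f, with Nlrp14 at -0.70 ± 1.50. The summed family level was 70.8, 2998 and 21521 CPM in the 3 GV Nat10-ZcKO libraries against 12292, 16957 and 18306 in GV WT, so the knockout libraries spanned the WT range. Per 100 oocyte marker counts, the 2 libraries with over 100 family counts had 22.2 and 28.9 family counts, and GV WT 26.5, 31.1 and 31.6.

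Without GV Nat10-ZcKO replicates 1 and 2, 2.01% of 3879 genes were called by edgeR and none of the 9 members, although 2 had an unadjusted p under 0.05. These were Nlrp14 at 0.77 ± 0.24 (adjusted p = 0.0767) and Nlrp4f at 0.79 ± 0.33 (adjusted p = 0.237). The sign of both, and of Nlrp4b, Nlrp9a and Nlrp9c, was then opposite to that with all libraries, and 1 knockout library stands for the group. 

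At MII 0.191% of 2097 genes were called by edgeR, all lower in Nat10-ZcKO, and none of the 7 members tested. No member had an unadjusted p under 0.05, and DESeq2 called none, but it gave no adjusted p for Nlrp9b. The changes ran from 0.03 ± 0.95 for Nlrp2 to 1.25 ± 1.25 for Nlrp4a, with Nlrp14 at 1.09 ± 1.85. Without MII WT replicate 2, 0.205% of 2924 genes and none of 8 members were called, and Nlrp2 was at -0.26 ± 0.55, Nlrp14 at 0.32 ± 0.49 and Nlrp4a at 0.83 ± 0.53.

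The test of whether the change from GV to MII differed between genotypes called 0.906% of 3863 genes on all libraries, and none of the 8 members tested, by edgeR or DESeq2, with no unadjusted p under 0.05. The difference for Nlrp14, Nat10-ZcKO minus WT, was 2.08 ± 2.56 on all libraries and -0.55 ± 0.62 without the 3 libraries. For Nlrp4a it was 3.01 ± 1.73 and 0.93 ± 0.65.

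The acRIP-seq pair asks which messages are enriched by the antibody over IgG in GV oocytes, and the study's rule is an ac4C to IgG ratio above 2, taken here as a ratio of CPM. Of 8752 genes with 10 or more counts over both libraries, 43.9% lay above 2 and 17.8% below 0.5, with a median ratio of 1.56. The ac4C library held 970997 counts on genes and the IgG library 116232, and there is 1 of each, so the intervals cover counting error only and no test was made. Nlrp14, with 5135 ac4C and 1292 IgG counts, had a ratio of 0.476 (Clopper-Pearson 95% interval 0.448 to 0.506), and Nlrp2, with 379 and 76, had 0.597 (0.466 to 0.774). Their intervals lay below 1, as did those of 1558 of the 8752 genes.

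The Nlrp4 genes lay higher. Nlrp4f, with 1371 and 104 counts, had a ratio of 1.58 (1.29 to 1.95), Nlrp4a, with 704 and 54, had 1.56 (1.18 to 2.10), and Nlrp4b, with 562 and 53, had 1.27 (0.957 to 1.72). Nlrp9b at 2.20 (1.62 to 3.06) and Nlrp9a at 2.01 (1.33 to 3.17) passed the rule, whereas their close copy Nlrp9c was at 0.986 (0.725 to 1.37). Nlrp4c had 31 counts against 1, a ratio of 3.71 with an interval of 0.618 to 151. So 3 of 9 members lay above 2, and none had a lower bound above 2, which 5.02% of the 8752 genes had. With the 46.7% of IgG and 17.1% of ac4C fragments that fell on no feature counted into the totals, 5 members and 55.4% of the genes lay above 2, and Nlrp14 and Nlrp2 stayed lowest, at 0.739 and 0.927.

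**Figure D5:**
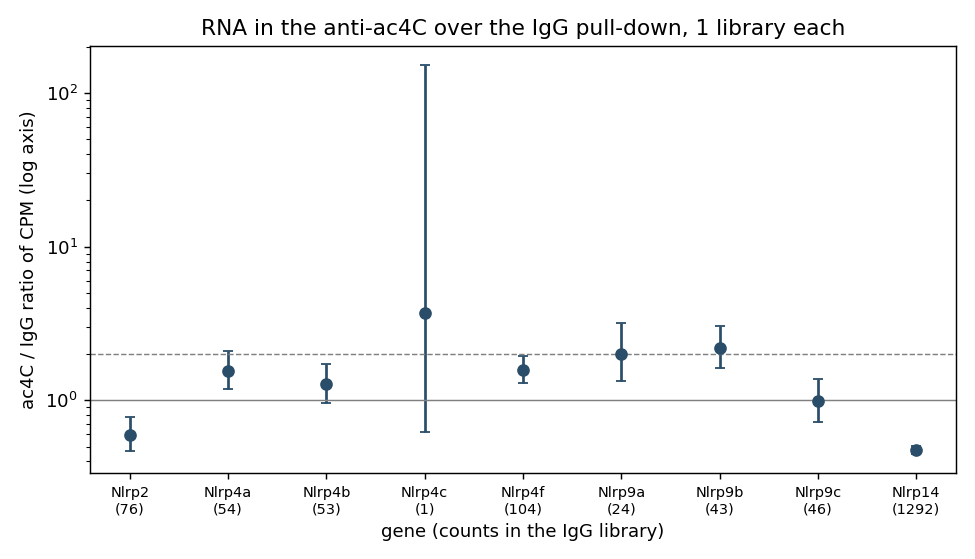
Points give the ratio of CPM in the ac4C library to CPM in the IgG library for each gene on a log axis, with 95% Clopper-Pearson intervals for counting error, and the IgG count in brackets. The dashed line is at 2 and the solid line at 1. Nlrp14 and Nlrp2 lie below 1, and Nlrp9a, Nlrp9b and Nlrp4c above 2.

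The other NLR genes on the lists examined, which do not hold Nlrp5, gave few footprints. Of 4 other NLRP paralogs of the oocyte, 1, Nlrp4e, had a row in the tables, with 12 counts over the 11 libraries. Of 17 NLR sensors of immune cells, 10 were at 0 in all 11 libraries and 1, the mitochondrial Nlrx1, had 20 or more counts, at 32. Of 8 inflammasome partners and products, 4 were at 0 in every library, Casp1 and Casp4 among them, and 1 had 20 or more counts, Txnip, a thioredoxin-binding protein with other known roles. Txnip was at 211 to 291 CPM in GV WT, 3448 in MII WT replicate 1 and 2317 to 4584 in MII Nat10-ZcKO, with 126 in GV Nat10-ZcKO replicate 3 and 1511 and 812 in replicates 1 and 2.

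Among 5 partners of oocyte NLRP proteins in the cortex, the maternal scaffold proteins, 4 fell with Nlrp14 and 1 did not, in fits that leave 1 library at a stage. Without MII WT replicate 2, the log2 change from GV to MII in WT was -4.69 ± 0.42 for Padi6, -4.35 ± 0.47 for Khdc3 and -3.92 ± 0.34 for Ooep. It was -2.49 ± 0.32 for Tle6 and 0.07 ± 0.28 for Zbed3. On all libraries edgeR called 1 of the 5, Khdc3, lower in WT, where 11.5% of 2045 genes were called lower. In Nat10-ZcKO it called none of 4 tested, where 6.02% of 2225 genes were called lower. In Nat10-ZcKO without GV replicates 1 and 2, the changes of the same 4 ran from -5.22 ± 0.53 for Khdc3 to -2.76 ± 0.47 for Tle6, and Zbed3 was at 2.10 ± 0.71. The Zbed3 value rests on GV Nat10-ZcKO replicate 3, where Zbed3 was at 2739 CPM, against 9404, 7343 and 9912 in GV WT. The median of the 5 was -3.92 in WT and -3.74 in Nat10-ZcKO, against -0.35 and 0.11 over all genes tested.

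Leaving the members out, the genes whose footprints followed the summed family counts most closely over the 11 libraries, of 2198 with 100 or more counts, were Ldhb (Pearson r of log2(CPM + 1) = 0.996), a lactate dehydrogenase subunit, Uchl1 (0.993), an abundant ubiquitin hydrolase of the oocyte, Kit (0.993), the receptor for Kit ligand, Tle6 (0.989) and Tdrd1 (0.988), a Tudor protein. Uchl1 and Kit are also on the list of oocyte markers. The 3 libraries with few oocyte counts set much of these values, and without them r was 0.981 for Ldhb, 0.972 for Uchl1, 0.925 for Kit, 0.977 for Tle6 and 0.862 for Tdrd1. Within the family, r over all 11 libraries was 0.991 for Nlrp14, 0.912 to 0.941 for Nlrp2 and the Nlrp9 genes, 0.893 for Nlrp4b, 0.892 for Nlrp4f and 0.843 for Nlrp4a. Over the 8 libraries the members lay farther apart, with Nlrp14 at 0.997, Nlrp2 at 0.967, Nlrp9b at 0.957, Nlrp9a at 0.948 and Nlrp9c at 0.899, against -0.25 for Nlrp4b, -0.42 for Nlrp4f and -0.79 for Nlrp4a. The sum holds the members themselves, and most of it is Nlrp14.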

How the data were processed

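Ribosome footprints of GV and MII oocytes and acRIP-seq fragments of GV oocytes were analysed from the deposited counts per gene, which the authors made from their reads with cutadapt, STAR and HTSeq on mm10 per the labels. Versions are not given in the sources used here. HTSeq's row for fragments on no feature (46.7% of IgG and 17.1% of ac4C fragments) was kept out of totals and tests. Identifiers were matched to GENCODE M21 (22399 of 22442 found), which also gave coordinates and lengths. Genotype and stage were compared with edgeR 4.0.16 in R 4.3.3 (filterByExpr, TMM, quasi-likelihood F test, Benjamini-Hochberg adjustment over all genes tested, threshold 0.05), each comparison fitted on its own groups, and stage by genotype as an interaction over the 11 libraries. DESeq2 1.42.0, other scalings and filters, a replicate block and each library left out were alternatives. SE was derived as the absolute edgeR log2 change divided by the square root of its F statistic. Levels are CPM and CPM per kb of the union of coding exons. Over 0 counts, 3 counts were taken as the upper limit. Intervals came from scipy 1.17.1, and coding sequences were aligned with Biopython 1.88.

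On simulated counts with the libraries' own sizes and genes changed 8-fold in either direction, for which the fitted median absolute log2 change was 2.52 to 3.21, the step at a dispersion of 0.1 called 114 of 114 changed genes for genotype at GV (1699 genes tested), 110 of 122 for genotype at MII (2226), 100 of 122 for stage in WT (2310) and 130 of 130 for stage in Nat10-ZcKO (2440). At the dispersion estimated from these libraries it called 83 of 108 (1765), 36 of 123 (2375), 0 of 123 (2190) and 78 of 119 (2341).

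The members and gene lists were chosen with earlier results of these data known. Named genes are the 9 members, Nat10, the genes of highest mean CPM in each other list (up to 4, with all 5 cortex partners given because they are few) and the 5 genes most similar to the family sum. Casp1 and Casp4 were named after their counts were seen. Replicate numbers were compared by the correlation of same-numbered libraries' deviations from their group means, which was -0.04 to 0.15, so they were not taken as pairs.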

Additional observations from a re-analysis of the deposited data

How the results depend on the processing

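Of the calls on members, those from GV to MII depended most on the setting. In WT, where 1 member was called on all libraries, DESeq2 called 5, library size without TMM 4, and library size from the oocyte markers, added after seeing the data, 5 (2 higher, 3 lower). No filter beyond 1 count, a fit of all 11 libraries and the replicate block each called 0. Leaving out single libraries gave 0 to 8 members, with 0 without GV WT replicate 2 or 3, 5 without MII WT replicate 2 and 8 without MII WT replicate 1, which leaves the library of 4815 counts alone. In Nat10-ZcKO, where none was called, DESeq2 and library size without TMM called 1 each, and leaving out GV replicates 1 and 2 called 6, while leaving out single libraries gave 0 to 4 (3, all lower, without GV replicate 1, and 4, all higher, without GV replicate 3). For genotype, leaving out single libraries gave 0 to 2 members at GV (2 without GV Nat10-ZcKO replicate 3) and 0 to 7 at MII (7 without MII WT replicate 1), and for stage by genotype 0 to 3 (1 without GV Nat10-ZcKO replicate 3, 3 without MII WT replicate 1). Every other setting for genotype or for stage by genotype called 0 members. The replicate numbers did not pair the libraries, and the replicate block called 0 members in each of the 4 comparisons of 2 groups.

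Signs that turned were all of values not called on all libraries. For stage in WT, Nlrp4a (0.72 on all libraries) was at -0.46 in DESeq2, -0.36 with no filter, -0.22 with all 11 libraries and -0.093 with the replicate block, and at -7.52 to 0.75 with single libraries left out. Nlrp4f (0.28) was at -0.79, -0.64, -0.51 and -0.55 in the same order, and at -8.41 to 0.42 with single libraries left out. Nlrp4b (-0.13) was at 1.17 with marker scaling and at -9.10 to 0.16 with single libraries left out. For stage in Nat10-ZcKO, Nlrp4b and Nlrp4f were at -0.083 and -0.068 without GV replicates 1 and 2, and Nlrp9c at 0.91 with the replicate block and 0.56 with marker scaling. With single libraries left out, Nlrp2 ran from -2.46 to 0.70, Nlrp9a from -2.69 to 0.068, Nlrp9b from -1.53 to 0.17, Nlrp9c from -1.27 to 3.78 and Nlrp14 from -3.48 to 0.55, the higher end each time without GV replicate 3. For genotype at GV without GV Nat10-ZcKO replicates 1 and 2, Nlrp4b was at 0.50, Nlrp4f 0.79, Nlrp9a 0.48, Nlrp9c 0.075 and Nlrp14 0.77. With marker scaling Nlrp4f was at 0.54, Nlrp9a 0.19, Nlrp9b 0.46 and Nlrp14 0.20, all below the median of all genes tested, 6.00. Nlrp4f ran from -1.97 to 0.25 with single libraries left out. For genotype at MII, Nlrp2 was at -0.29 with marker scaling and ran from -0.26 to 7.66. The cause of these shifts was not tested. Marker scaling moved the median of all genes tested from -0.44 to 0.50 for stage in WT and from -0.07 to -4.96 for stage in Nat10-ZcKO. For genotype at GV the same median moved from -0.06 to 6.00, and at MII from 0.37 to 0.04.

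With 3 members above an ac4C to IgG ratio of 2, totals that include fragments on no feature gave 5, raw counts 9 and a lower bound above 2 gave 0, and TMM factors gave 3. The summed family level with single libraries left out was 14625 to 17632 CPM in GV WT, 1534 to 12259 in GV Nat10-ZcKO, 0 to 2529 in MII WT and 3138 to 3728 in MII Nat10-ZcKO.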
